A study of Musca domestica with 16 samples.

Results

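In the house fly, Musca domestica, 34 of 14631 genes differed moderately between males of 2 strains in opposite directions in the head and in the testis. In strain CSaY the male determiner lies on the Y chromosome (YM males), and in strain CS it lies on chromosome III (IIIM males). A gene was taken when, in male heads and again in testes, the higher strain had at least 5 FPKM (FPKM counts sequenced fragments, scaled by transcript length and by the library's total) and the ratio of FPKM + 1 between the strains was 1.5 or more but below 4, with the higher strain not the same in the 2 tissues. Genes placed on the X chromosome, single-copy orthologs placed on chromosome III and 2 genes left out by name, of which 1 met the other criteria, are not among them. The genes were thus chosen by the FPKM values of male heads and testes in both strains, and these values are given as a description, with no test.

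Messenger RNA was sequenced from unmated adults of 4 to 6 days, reared at 25 °C. The groups were CSaY and CS male heads and CSaY and CS testes, with 3 libraries each, and CSaY and CS female heads and CSaY and CS ovaries, with 1 library each. The authors' deposited table gives 1 FPKM value per group, so the spread between male libraries and the read depth are unknown. The FPKM and the q value of each comparison (a p-value adjusted for many tests) are the authors' own, and a gene is called different where q is below 0.05. In whole heads and gonads, fewer cells of a type and less RNA per cell cannot be told apart.

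The male determiner of the house fly starts male development and can sit on different chromosomes in different populations, so that males of 2 strains can differ in which chromosome carries it while both are fertile. The head holds the brain, the eyes and the fat body, an organ of metabolism and immunity, whereas the testis is filled with germ cells on the way to sperm.

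None of the 34 genes carries an informative symbol. Of the 28 that were matched in a RefSeq table of names, 27 are listed as protein-coding and 1, LOC101891851, as a long non-coding RNA. One of the 34, LOC101896897, shares its ortholog group with diptericin, a gene for an antimicrobial peptide. The files give no function for the others, so they are described by identifier, position and the Drosophila genes that the table lists as their orthologs.

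The direction was mostly the same: 31 genes were lower in CSaY heads and higher in CSaY testes than in CS, and 3 genes were higher in CSaY heads and lower in CSaY testes. The balance depends on the settings: it was 35 to 10 with a pseudocount of 0.1 and 29 to 7 with ratios centred on their median. The level minimum and the exclusions left 5554 genes, of which the 34 are 0.612%. Within the same range of ratios 89 of the 5554 genes moved in the same direction in both tissues, 43 higher and 46 lower in CSaY. Taken alone, 2.56% of the 5554 genes were higher and 4.95% lower in CSaY heads within that range, and 7.15% were higher and 3.75% lower in CSaY testes. The median log2 ratio of CSaY to CS over the 5554 genes was -0.04 in heads and 0.02 in testes. How the authors scaled the group values between libraries is not stated in the sources used here.

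**Figure D1:**
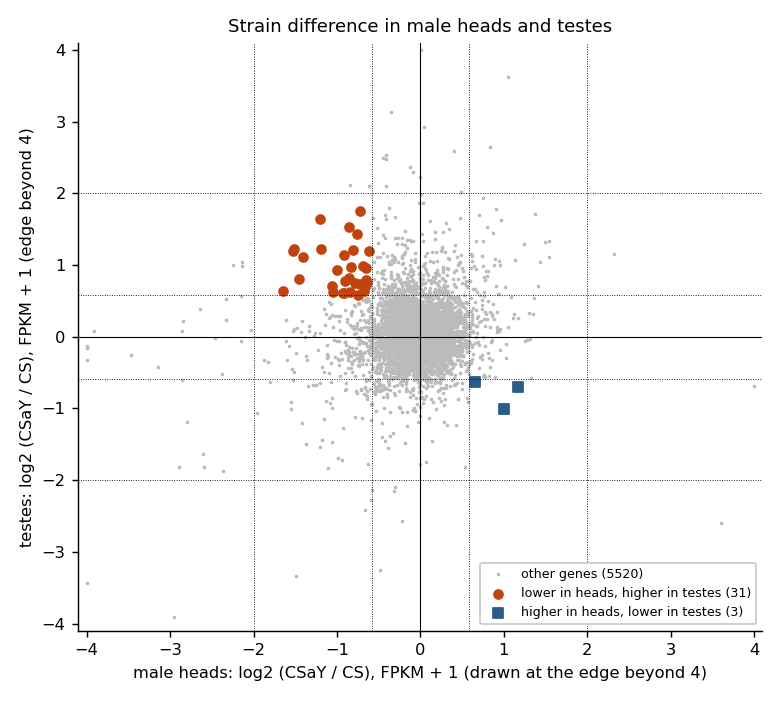
Log2 ratio of CSaY to CS (FPKM + 1) in testes (vertical) against male heads (horizontal) for the 5554 genes that met the level minimum; dotted lines mark ratios of 1.5 and 4, and genes beyond a log2 ratio of 4 are drawn at the edge. The 31 genes lower in CSaY heads and higher in CSaY testes fill the upper left field, and the 3 genes of the other direction the lower right.

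By the authors' q, 24 of the 34 genes tested in male heads were called (9.25% of all tested genes), 1 higher (3.39%) and 23 lower in CSaY (5.86%). In testes 23 of the 33 genes tested were called (13% of all tested genes), 22 higher (7.61%) and 1 lower in CSaY (5.41%). Both calls were made for 19 genes (2.12% of the genes with a q in each tissue), 18 of them lower in CSaY heads and higher in CSaY testes (0.457%). Calls in both tissues with opposite directions made up 0.577% of those genes, 48 in all. Of the others, 5 were called in heads alone, 4 in testes alone and 6 in neither. Because these contrasts chose the genes, nothing is read from the counts.

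LOC101896897 lies on scaffold NW_004765871 (positions 128708 to 129072) of chromosome III, 5049 bases from diptericin. Its level was 160.2 FPKM in CSaY and 463 FPKM in CS male heads, and 6.58 FPKM in CSaY and 2.31 FPKM in CS testes. The head level was 2.89-fold lower in CSaY (q = 0.00138 in the authors' deposited table), and the testis difference of 2.85-fold was not called (q = 0.276 in the same table). Diptericin, made in the fat body of flies against bacteria, had the same 2 directions but fell outside the rule, since its head ratio exceeded 4 and its testis level stayed under 5 FPKM. It stood at 48.1 FPKM in CSaY and 297.7 FPKM in CS male heads, and at 4.18 FPKM in CSaY and 2.08 FPKM in CS testes. Defensin-1, which belongs to a separate family of antimicrobial peptides, was higher in CSaY heads (1171 against 472 FPKM in CS) and stood at 11.0 FPKM in CSaY and 11.3 FPKM in CS testes. Of 22 gene lists drawn up for families such as these, only the antimicrobial list reached 1 of the 34 genes by name, through diptericin. The Drosophila orthologs are listed as identifiers without names, so the lists were not matched through them. Other genes of the 34 may therefore belong to a list.

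A pair of the 34 genes belongs to ortholog group 1498, a row of 10 neighbouring genes within 43.0 kb of scaffold NW_004764662 on chromosome 2, whose listed orthologs are FBgn0000276, FBgn0000277, FBgn0000278 and FBgn0000279. LOC101888936 (positions 221618 to 221877) stood at 47.1 FPKM in CSaY and 136.9 FPKM in CS male heads, and at 44.9 FPKM in CSaY and 18.6 FPKM in CS testes. It was called in neither tissue (q = 0.0745 and 0.278 in the authors' deposited table). LOC101901181 (positions 229767 to 230155) stood at 34.7 FPKM in CSaY and 110.5 FPKM in CS male heads, and at 6.61 FPKM in CSaY and 3.90 FPKM in CS testes. In the authors' deposited table its q was 0.00138 in heads and 0.495 in testes. All 6 of the other genes of the row that reached 5 FPKM in heads were lower in CSaY heads, and of the 6 that reached it in testes 4 were higher in CSaY. Among these 4, LOC101889296 was nearly equal (7.21 FPKM in CSaY and 7.19 FPKM in CS testes), and LOC101889801 and LOC101889972 stayed under 5 FPKM in heads. The genes of the row tested by the authors in testes were LOC101888757, LOC101888936, LOC101901181 and LOC101901516. None of them was called there (13% of all tested genes were). The others of the row, among them LOC101889296, LOC101889801 and LOC101889972, were not tested in testes. LOC101888757, next to LOC101888936, was 4.62-fold lower in CSaY heads (16.5 against 76.2 FPKM in CS) and 2.14-fold higher in CSaY testes (29.2 against 13.6 FPKM in CS). Its head ratio put it just outside the upper bound. The division of reads among such similar copies is a step not given in the sources used here, and the levels of single copies are uncertain for that reason.

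LOC101892670, on scaffold NW_004764949 of chromosome 1, stands in a second row, ortholog group 1459, with 8 genes within 34.5 kb. It stood at 213.5 FPKM in CSaY and 380.2 FPKM in CS male heads, and at 17.7 FPKM in CSaY and 8.53 FPKM in CS testes. The head difference was called (q = 0.00622 in the authors' deposited table) and the testis difference was not (q = 0.185 in the same table). Over the whole group, 7 other genes met the level minimum in both tissues, 6 of them lower in CSaY heads and higher in CSaY testes at any size of ratio. All 7 were higher in CSaY testes. LOC101893019 was 2.64-fold higher in CSaY testes (77.2 against 29.2 FPKM in CS, q = 0.00107 in the authors' deposited table), and its head level was 2206 FPKM in CSaY and 2654 FPKM in CS (q = 0.446 in the same table). LOC101892161, at the end of the row, was higher in CSaY in both tissues, with 92.1 FPKM in CSaY and 47.4 FPKM in CS heads and 8.19 FPKM in CSaY and 5.09 FPKM in CS testes.

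**Figure D2:**
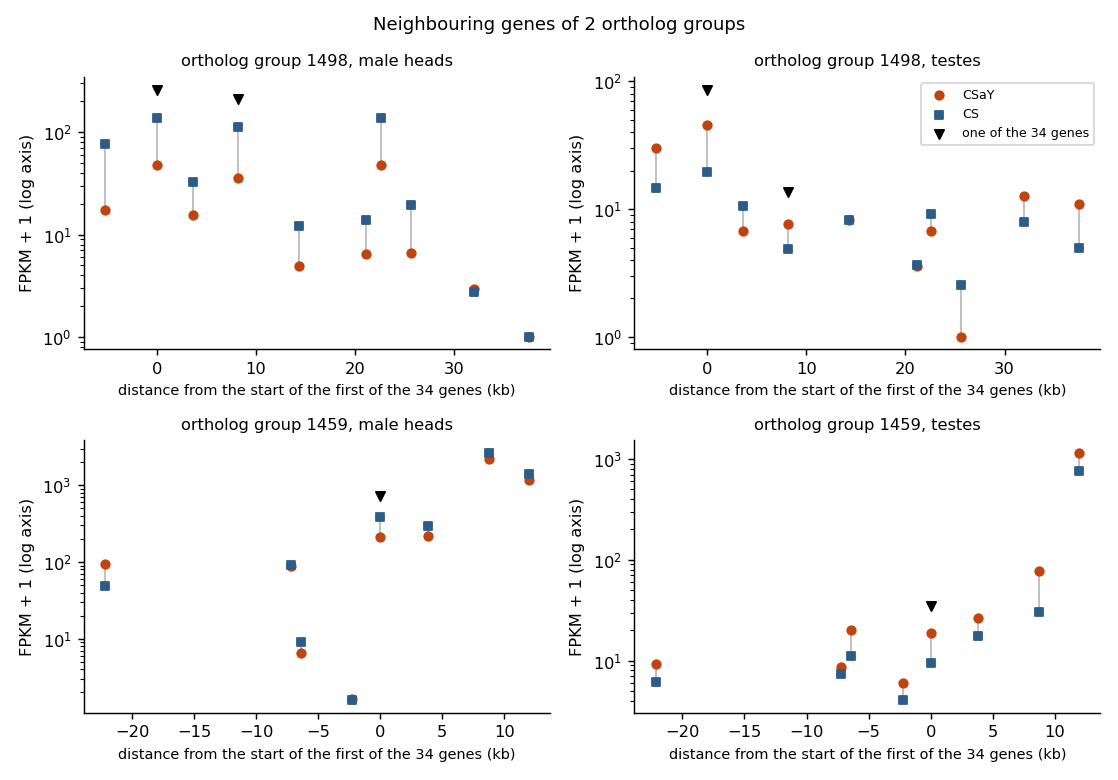
FPKM + 1 (log axis) in male heads (left) and testes (right) of the neighbouring genes of ortholog groups 1498 and 1459, placed by distance in kb; circles are CSaY, squares CS, and triangles mark those among the 34. In group 1498 CS lies above CSaY in heads for the 6 other genes that reach 5 FPKM, and in group 1459 CSaY lies above CS in testes for every gene of the row.

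LOC101888378 and LOC101888545 are neighbours too, 3436 bases apart on scaffold NW_004766066 of chromosome 5 (ortholog group 1540). LOC101888378 stood at 16.7 FPKM in CSaY and 30.8 FPKM in CS male heads, and at 424 FPKM in CSaY and 275 FPKM in CS testes. It was called in both tissues (q = 0.0271 in heads and 0.0136 in testes in the authors' deposited table). LOC101888545 stood at 2.72 FPKM in CSaY and 5.96 FPKM in CS male heads, and at 99.4 FPKM in CSaY and 57.6 FPKM in CS testes. All 5 genes of this group, 2 of them chosen by these values, were called higher in CSaY testes (7.61% of all tested genes). In heads LOC101891308 was not tested, and LOC101888378 was the only gene of the group called lower in CSaY (5.86%).

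Relatives of the 34 genes in the same ortholog groups were split in direction. The 34 genes fall into 30 ortholog groups, with 2 genes in no group, and 18 groups have other genes. Of the 27 other genes of the groups that met the level minimum, 13 were lower in CSaY heads and higher in CSaY testes at any size of ratio (48.1%), 2 had the reverse and 12 moved one way in both. Of the 13 genes 6 belong to ortholog group 1459. Over the 5554 genes the share lower in CSaY heads and higher in CSaY testes was 29.2%, and that of the reverse 21.5%. LOC101887796 lies 3372 bases from LOC101901585 and is the other gene of its group. It was lower in CSaY in both tissues, with 1329 FPKM in CSaY and 1962 FPKM in CS heads and 39.3 FPKM in CSaY and 67.4 FPKM in CS testes.

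Neighbours from other ortholog groups had the pattern about as often as genes in general. Among the genes within 50 kb that belong to other ortholog groups and met the level minimum, 15 of 53 were lower in CSaY heads and higher in CSaY testes (28.3%, against 29.2% of the 5554 genes).

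Of the 34 genes 6 are single-copy orthologs with 1 Drosophila gene each. All 6 were lower in CSaY heads and higher in CSaY testes and had both calls, in contrasts that chose them (0.457% of the genes with a q in each tissue). LOC101894740 (ortholog FBgn0036547, scaffold NW_004764580, chromosome 4) stood at 36.8 FPKM in CSaY and 74.7 FPKM in CS male heads, and at 29.5 FPKM in CSaY and 15.1 FPKM in CS testes. In this gene the strain with the lower head level had the higher testis level by nearly the same factor, 2.03-fold in heads and 1.96-fold in testes. LOC101896006 (FBgn0032076, chromosome 1) stood at 57.7 FPKM in CSaY and 99.97 FPKM in CS heads, and at 36.0 FPKM in CSaY and 21.0 FPKM in CS testes. LOC101891394 (FBgn0054034, chromosome 2) stood at 269.7 FPKM in CSaY and 424 FPKM in CS heads, and at 130.1 FPKM in CSaY and 75.1 FPKM in CS testes. These 2 genes were expressed more in heads than in testes in both strains. LOC101889844 (FBgn0260942), LOC101895834 (FBgn0032415) and LOC101895329 (FBgn0250837) were called in both tissues as well, with head levels between 7.90 and 24.8 FPKM.

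The most abundant of the 34 genes was LOC101893326 on chromosome 2 (scaffold NW_004766407, positions 76974 to 77373). It stood at 3818 FPKM in CSaY and 6135 FPKM in CS male heads, and at 556 FPKM in CSaY and 280.2 FPKM in CS testes. The head level was 1.61-fold lower (q = 0.00447) and the testis level 1.99-fold higher (q = 0.00107) in CSaY in the authors' deposited table. LOC101895675 and LOC101901585, both on chromosome III, and LOC101901277, on a scaffold with no chromosome, also exceeded 1000 FPKM in CS male heads. LOC101895675, for which no Drosophila ortholog is listed, stood at 1192 FPKM in CSaY and 2088 FPKM in CS heads, and at 30.1 FPKM in CSaY and 12.4 FPKM in CS testes. LOC101901585 (FBgn0030158) stood at 756 FPKM in CSaY and 1427 FPKM in CS heads, and at 135.3 FPKM in CSaY and 88.4 FPKM in CS testes. LOC101893326, LOC101901585 and LOC101901277 were called in both tissues, and LOC101895675 in heads alone.

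At the other end stood genes of the testis with a low level in heads. LOC101893397 on chromosome 1 (FBgn0029990) had the highest testis level of the 34, at 1311 FPKM in CSaY and 753 FPKM in CS testes, and 6.83 FPKM in CSaY and 20.4 FPKM in CS male heads. Its head level was 2.99-fold lower in CSaY (q = 0.00138) and its testis level 1.74-fold higher (q = 0.0101 in the authors' deposited table). LOC101896732, a gene without a listed ortholog on a scaffold with no chromosome, stood at 399 FPKM in CSaY and 127.6 FPKM in CS testes, and at 4.05 FPKM in CSaY and 10.6 FPKM in CS male heads. Both of its differences were called, 2.63-fold lower in heads (q = 0.0302) and 3.13-fold higher in testes (q = 0.00107 in the authors' deposited table). The pattern was thus present among genes expressed mainly in the head and among genes expressed mainly in the testis.

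**Figure D3:**
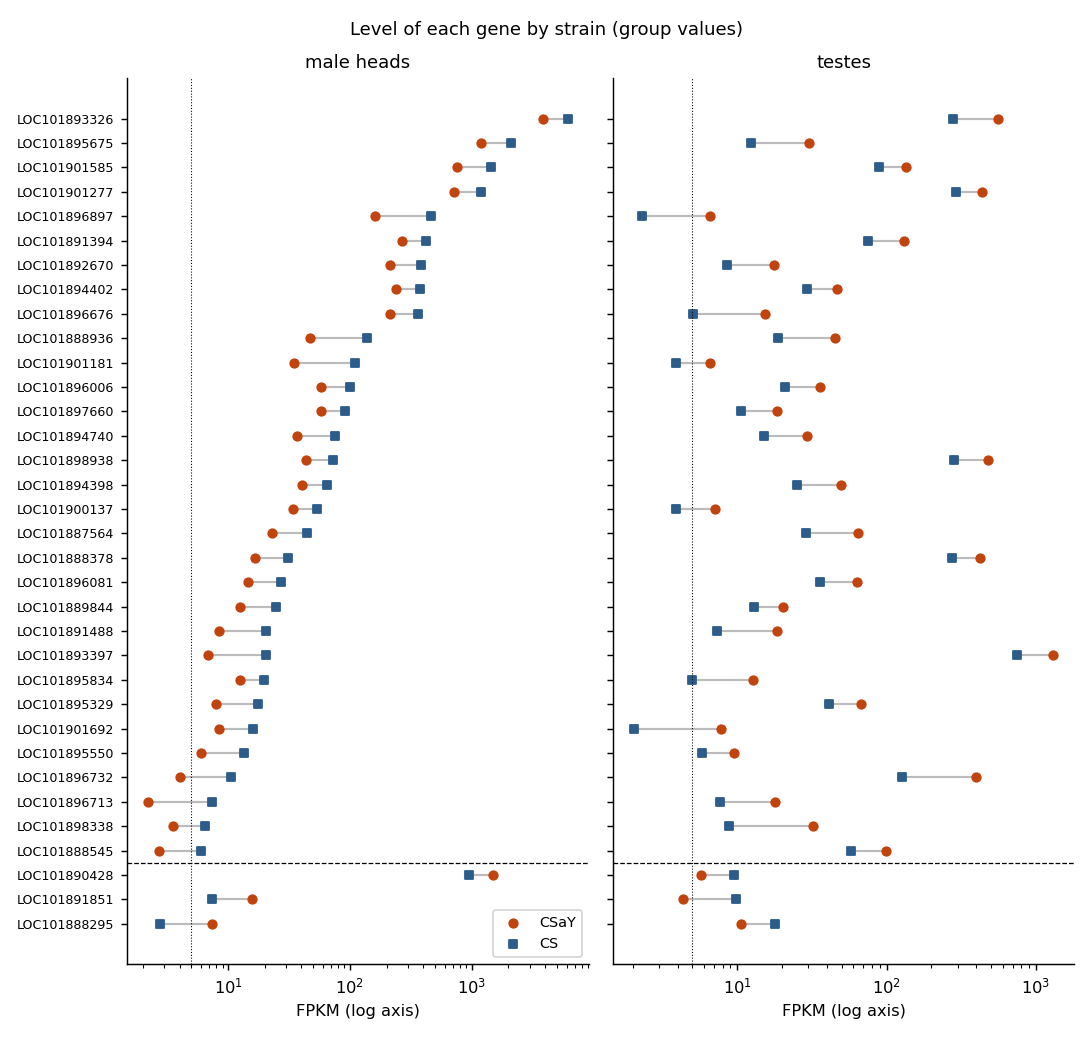
FPKM (log axis) of each of the 34 genes in male heads (left) and testes (right), circles for CSaY and squares for CS; each point is the authors' single value for 3 libraries, the dotted line marks 5 FPKM and the dashed line separates the 3 genes of the minority direction at the bottom. In the 31 genes above the dashed line the circle lies left of the square in heads and right of it in testes.

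The largest opposite differences, judged by the smaller of the 2 log2 ratios of a gene, belonged to LOC101888936, LOC101896732, LOC101896897, LOC101891488 and LOC101896713. LOC101891488 stood at 8.45 FPKM in CSaY and 20.6 FPKM in CS male heads, and at 18.5 FPKM in CSaY and 7.35 FPKM in CS testes. LOC101896713 (FBgn0028381, chromosome III) stood at 2.2 FPKM in CSaY and 7.44 FPKM in CS male heads, and at 17.8 FPKM in CSaY and 7.71 FPKM in CS testes. Each of these 2 genes was called in both tissues (q between 0.00107 and 0.0078 in the authors' deposited table). The largest testis ratio of FPKM + 1 was that of LOC101898338, with 31.9 FPKM in CSaY and 8.80 FPKM in CS testes. Its head levels, 3.55 FPKM in CSaY and 6.51 FPKM in CS, lay near the level minimum. The head difference was not called (q = 0.155 in the authors' deposited table), and the deposited locus is shared with another gene. LOC101896732 followed with the values above. LOC101901692 came next, at 7.74 FPKM in CSaY and 2.02 FPKM in CS testes and at 8.48 FPKM in CSaY and 16.1 FPKM in CS male heads. It was followed by LOC101896676, without a listed ortholog, which stood at 15.3 FPKM in CSaY and 5.08 FPKM in CS testes and at 211.5 FPKM in CSaY and 359 FPKM in CS male heads.

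In some genes the strain difference exchanged the order of the tissues, which the choice of opposite differences favours. For 7 of the 34 genes (20.6%, against 10.5% of the 5554 genes) the tissue with the higher level differed between the strains. LOC101887564 (scaffold NW_004764693, chromosome 2) stood at 23.0 FPKM in heads and 64.3 FPKM in testes of CSaY males, and at 44.2 FPKM in heads and 28.7 FPKM in testes of CS males. LOC101894398, a gene in no ortholog group, stood at 40.7 FPKM in heads and 49.8 FPKM in testes of CSaY males, and at 64.5 FPKM in heads and 25.1 FPKM in testes of CS males. Among the 31 genes lower in CSaY heads, 16 were higher in heads than in testes in CSaY and 22 in CS.

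The 3 genes with higher CSaY heads and lower CSaY testes were less uniform. LOC101888295 on chromosome III stood at 7.38 FPKM in CSaY and 2.74 FPKM in CS male heads, and at 10.6 FPKM in CSaY and 17.9 FPKM in CS testes. It was the only one of the 3 called in both tissues (q = 0.00249 in heads and 0.0122 in testes in the authors' deposited table). LOC101890428 on chromosome 2, whose listed orthologs are FBgn0003861, FBgn0005614 and FBgn0032593, stood at 1497 FPKM in CSaY and 950.2 FPKM in CS male heads, and at 5.73 FPKM in CSaY and 9.44 FPKM in CS testes. Neither difference was called (q = 0.512 and 0.686 in the authors' deposited table). LOC101890597, of the same ortholog group, is deposited with the same locus, so reads of the pair may not be told apart. It had the same 2 directions, with 1152 FPKM in CSaY and 707 FPKM in CS heads (q = 0.0179 in the authors' deposited table) and 15.1 FPKM in CSaY and 20.7 FPKM in CS testes. The non-coding RNA LOC101891851 stood at 15.8 FPKM in CSaY and 7.37 FPKM in CS male heads, and at 4.34 FPKM in CSaY and 9.77 FPKM in CS testes, and it was not tested by the authors in testes.

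The bounds of the rule cut through a continuum. Just inside the lower bound lay LOC101901277, with a testis ratio of 1.501 (438 FPKM in CSaY, 291.7 FPKM in CS), and just outside it LOC101899937, with a testis ratio of 1.497 (38.1 FPKM in CSaY, 57.5 FPKM in CS). Just inside the upper bound lay LOC101898338, with a testis ratio of 3.36, and just outside it LOC101889641, with a testis ratio of 4.30 (23.6 FPKM in CSaY, 4.73 FPKM in CS). At the level minimum, LOC101888545 was kept with 5.96 FPKM in CS heads, and LOC101894882 was left out with 4.59 FPKM in CS heads.

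The female libraries took no part in the choice of the genes, and each strain has 1 library per tissue there, so the values below compare those libraries and carry no test of the strains. In female heads the strain difference did not follow that of male heads. Of the 31 genes lower in CSaY male heads, 17 were higher and 14 lower in the CSaY female head library. Among the 29 of them with at least 5 FPKM in the higher library, 11 were at least 1.5-fold higher (37.9%) and 4 at least 1.5-fold lower in CSaY (13.8%, ratios of FPKM + 1). Of the genes among the 5554 with the same level, 5.78% were higher and 6.23% lower by that ratio. The median log2 ratio of CSaY to CS in female heads was 0.25 for the 31 genes and -0.01 for the 5554.

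The authors' test called 4 of the 34 genes between the female head libraries (0.772% of all tested genes), 2 higher (0.317%) and 2 lower in CSaY (0.455%), and it compares those libraries only. LOC101893397 stood at 285.4 FPKM in the CSaY and 70.5 FPKM in the CS female head library, the reverse of its direction in males (q = 0.0153 in the authors' deposited table). LOC101887564 stood at 113.3 FPKM in the CSaY and 24.7 FPKM in the CS library, again the reverse of male heads. LOC101892670 stood at 100.1 FPKM in the CSaY and 499 FPKM in the CS library. LOC101888936 was listed at 0 in the CSaY library and stood at 153.3 FPKM in the CS library. In these last 2 genes, both from the rows of similar genes, female and male heads had the same direction. LOC101896897, the gene beside diptericin, stood at 2.40 FPKM in the CSaY and 2194 FPKM in the CS female head library and was not called (q = 0.998 in the authors' deposited table). Diptericin itself stood at 1.23 FPKM in the CSaY and 819 FPKM in the CS female head library.

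In ovaries most of the genes were hardly expressed. Both ovary libraries were below 1 FPKM for 20 of the 34 genes (58.8%), against 10.1% of the 5554 genes, and at 0 for 10 of them (29.4% against 1.98%). In 5 genes at least 1 ovary library reached 5 FPKM, all among the 31 that were higher in CSaY testes. None of these was at least 1.5-fold higher and 2 were at least 1.5-fold lower in the CSaY library, where 4.8% of the genes of that level among the 5554 differed so, 2.54% higher and 2.26% lower. LOC101895329 was the exception in level, at 1174 FPKM in the CSaY and 1276 FPKM in the CS ovary library. LOC101888378 stood at 54.7 FPKM in the CSaY and 90.2 FPKM in the CS ovary library, opposite to its direction in testes. Of the 18 genes among the 31 with unequal values under 5 FPKM, 16 were higher in the CSaY ovary library (88.9%), against 55.9% of the genes among the 5554 with such values. These are very low levels, and the number of reads behind them is unknown. The 1 call between the ovary libraries among 10 tested genes (0.358% of all tested genes, 0.306% higher and 0.0511% lower in CSaY) was that of LOC101901692, at 3.47 FPKM in the CSaY library and listed at 0 in the CS library (q = 0.042 in the authors' deposited table).

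**Figure D4:**
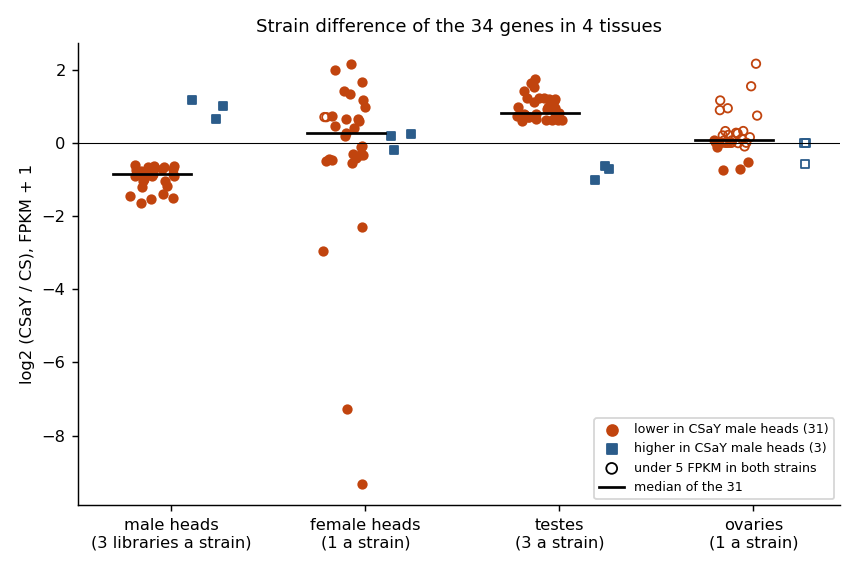
Log2 ratio of CSaY to CS (FPKM + 1) of the 34 genes in 4 tissues, circles for the 31 genes lower in CSaY male heads and squares for the other 3; open symbols are under 5 FPKM in both strains and bars are medians of the 31. Male heads and testes separate fully because they chose the genes, while female heads spread to both sides of 0 around a median of 0.25.

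Between the sexes, with both strains together, the authors called 25 of the 34 genes in testes against ovaries (73.6% of all tested genes) and 11 in male against female heads (13.3% of all tested genes). Testis levels mostly lay above ovary levels. The median log2 ratio of testis to ovary, each as the mean of the strains, was 3.90 for the 34 genes and -0.18 for the 5554. LOC101895329, at 67.7 FPKM in CSaY and 41.2 FPKM in CS testes, was lower there than in ovaries. In heads the log2 ratio of males to females ran from -3.61 to 1.73 over the 34 genes, with a median of 0.37, against a median of 0.36 for the 5554. LOC101893397 was called between the sexes, with the male and female head levels given above (q = 0.000717 in the authors' deposited table). LOC101901585 was called too, at 756 FPKM in CSaY and 1427 FPKM in CS male heads and at 281 FPKM in the CSaY and 374 FPKM in the CS female head library, with the same q in the authors' deposited table. The male libraries of these comparisons include those that chose the genes.

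The rule did not use gene structure, and it used homology and position only in its exclusions. The deposited loci of the 34 genes spanned a median of 991 bases, against 3676 bases for the 5554 genes, and 17 of the 34 (50%) were shorter than 1000 bases, against 12.4%. Off chromosome III, where the rule left single-copy orthologs in, 6 of 29 were single-copy (20.7%, against 67.6% of such genes among the 5554). Of all 34 genes 14 had several Drosophila orthologs (41.2% against 19.5%) and 10 had none (29.4% against 9.87%). Several genes share 1 deposited locus in 4 cases, among them LOC101900137, whose locus holds 9 genes, where reads may not be told apart. By scaffold, 10 genes lay on chromosome 2, 5 each on chromosomes 1 and III, 3 each on chromosomes 4 and 5, and 8 on scaffolds with no chromosome. Among genes that are not single-copy, to which the exclusion does not apply, chromosome III held 5 of 28 (17.9%, Wilson 95% interval 7.88 to 35.6%, which covers counting error only), against 16.4% of such genes among the 5554.

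**Figure D5:**
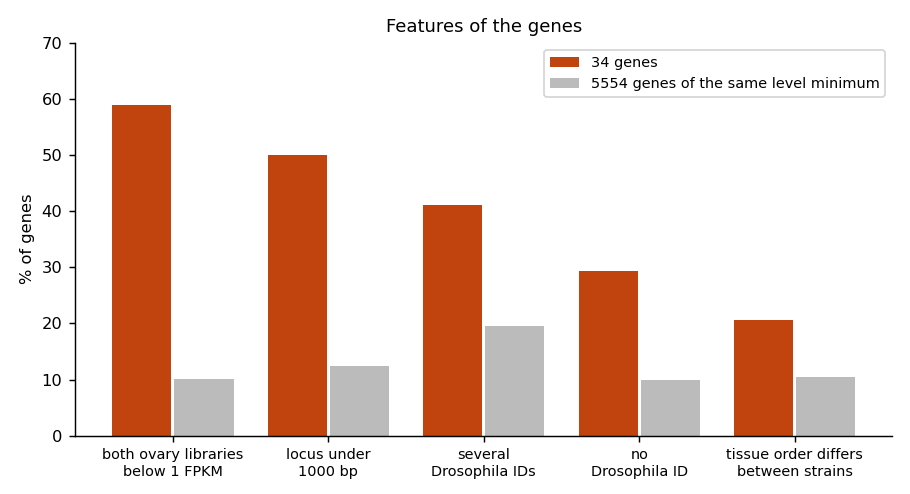
Share of genes (%) with each of 5 features among the 34 genes and among the 5554 genes that met the same level minimum. The 34 genes reach 58.8% below 1 FPKM in both ovary libraries, against 10.1%, and 50% with a locus under 1000 bases, against 12.4%.

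Tissue identity was checked only through the few genes with a symbol, and not through the listed Drosophila orthologs. Bcd, a maternal gene of the oocyte in Drosophila, stood at 249.7 FPKM in the CSaY and 252.5 FPKM in the CS ovary library, at 0.577 FPKM in CSaY and 1.96 FPKM in CS testes, and at 0 in all 4 groups of heads. Para-like, a sodium channel gene of neurons, stood at 18.2 FPKM in CSaY and 20.9 FPKM in CS male heads and at 9.46 FPKM in CSaY and 11.0 FPKM in CS testes. No testis or muscle marker had a symbol, so these tissues were not checked. The 3 fat body markers with a symbol (yp3, a yolk protein gene, diptericin and defensin-1) summed to 28.9 FPKM in CSaY and 20.4 FPKM in CS testes, and to 1223 FPKM in CSaY and 836 FPKM in CS male heads, with none at 0 there. The head sum is higher in CSaY through defensin-1 alone, since yp3 and diptericin were lower in CSaY male heads. Yp3 stood at 13.6 FPKM in CSaY and 7.05 FPKM in CS testes, and at 3.82 FPKM in CSaY and 66.0 FPKM in CS male heads, and is one of the 2 genes left out by name. Of the 34 genes 11 had more than 5 times as much FPKM in male heads as in testes, summed over strains, and 10 of these were higher in CSaY testes. That count repeats the choice of the genes, as 31 of the 34 were higher in CSaY testes, and nothing is read from it. Among the 485 of the 5554 genes with that head excess, 17.3% were at least 1.5-fold higher and 10.1% at least 1.5-fold lower in CSaY testes. The part of fat body or other head-like tissue in the testis values was not tested.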

How the data were processed

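The FPKM values are the authors' own, per the file headers 1 per combination of strain, sex and tissue (4 other columns of FPKM could not be matched to a group of samples and were not used, so ratios between the sexes use the mean of the strain columns, not the pooled columns first planned). Tools named in the submitters' processing notes are Cufflinks 2.2.1, Bowtie2 2.1.0.0, TopHat2 2.0.8b and CASAVA 1.8.2, with roles and genome build not stated. The q value of each comparison was taken from the deposited table, with its adjustment likewise unstated. Log2 ratios were computed from FPKM + 1, folds from FPKM, with no fold against 0. No test of single genes was added, since each group has 1 value. Positions are those of the deposited table. Names come from RefSeq assembly GCF_030504385.1, used for names only. The members and lists were chosen with earlier results of these data known.

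Genes named are those called in both tissues, the 5 with the largest smaller ratio in each direction, the 5 with the highest level and those that share an ortholog group or lie within 50 kb of each other, 26 in all. Of the other 8, LOC101892670, LOC101898338 and LOC101900137 were named after their values were seen, as were relatives in ortholog groups and genes outside the bounds. The code that applies the rule was checked on 20 sets of simulated data without noise, with planted ratios away from the bounds. That checks the code alone, not the choice of the rule. Alternatives were a pseudocount of 0.1, minimum levels of 0 and 10 FPKM, median centring, q below 0.01 and the chromosome by ortholog. Software was matplotlib 3.10.9, scipy 1.17.1, pandas 2.3.3, numpy 2.4.6 and Python 3.11.15.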

Additional observations from a re-analysis of the deposited data

How the results depend on the processing

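The number of genes that met the rule was 45 with a pseudocount of 0.1, 23 with a minimum of 10 FPKM, 36 after median centring, 35 with the chromosome by ortholog and 65 with no minimum level, of which 31, 23, 29, 31 and 31 belonged to the 31 genes lower in CSaY heads and higher in CSaY testes. The counts in that direction and in the other were 35 and 10, 23 and 0, 29 and 7, 32 and 3, and 52 and 13, in the same order. At q below 0.01, 8 genes were called in both tissues, 17 in heads and 16 in testes. The share of all tested genes below 0.01 was not counted, so nothing is read from these numbers. The female head median of the 31 genes was 0.26 with a pseudocount of 0.1, 0.19 with at least 5 FPKM and 0.26 after centring, and that of the 3 genes 0.21 after centring. The ovary median of the 31 genes was 0.07 as reported, 0.26 with a pseudocount of 0.1 and -0.54, a change of sign, with at least 5 FPKM, where 5 genes are left. That of the 3 genes was 0.0077 after centring, and none of them reached 5 FPKM. For the ratios between the sexes no alternative was run, since the pooled columns were not used. By ortholog the shares were 5.88% on chromosome 2, 2.94% on 4, 0% on III and 5, and 82.4% unplaced, but all 6 genes placed are single-copy, which the rule leaves out on chromosome III, so the share there says nothing. After the data were seen, the count of genes low in ovaries was repeated, with 10 at 0 in both libraries and 29 below 5 FPKM. No paired analysis was possible because the table holds 1 value per group, so no replicate could be left out either. Read depth is unknown and limits the low values most.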

Other observations

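Beyond the upper bound of the rule, with its exclusions kept (yp3 is left out by name), 7 genes differed by at least 1.5-fold in opposite directions with a ratio of 4 or more in at least 1 tissue, and 5 of them had the direction of the majority, lower in CSaY heads and higher in CSaY testes. LOC101898215 on chromosome 2 stood at 44.3 FPKM in CSaY and 80.4 FPKM in CS male heads and at 153.6 FPKM in CSaY and 34.7 FPKM in CS testes, and it was called in both tissues (q = 0.00138 and 0.00107 in the authors' deposited table). LOC101898013 on chromosome 5 stood at 13.3 FPKM in CSaY and 66.9 FPKM in CS male heads and at 9.55 FPKM in CSaY and 4.26 FPKM in CS testes, called in both tissues as well. On the same scaffold LOC101898536 was listed at 0 in CS male heads, with 119.0 FPKM in CSaY male heads, 86.0 FPKM in the CSaY and 85.9 FPKM in the CS female head library, and it was not tested by the authors in male heads.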
